A study of Mus musculus with 6 samples.

Results

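The 10 genes of the inflammasome and of pyroptosis described here, chosen by symbol from a table of 23122 genes, were followed in CT26 tumors of mice given the prostaglandin receptor antagonist TP-18 or vehicle. They are the inflammatory caspase genes Casp1, Casp4 and Casp12, the pore-forming gasdermin gene Gsdmd, the sensor genes Nlrp3, Aim2, Naip2, Naip5 and Nod2, and the adaptor gene Pycard. All 10 were found in the table, and all passed the filter on low counts.

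An inflammasome is a protein complex that assembles in the cytosol when a sensor detects microbial or damage signals. The sensor recruits the adaptor ASC, the product of Pycard, which gathers and activates caspase-1, and that protease matures the cytokines IL-1 beta and IL-18. Caspase-1, and caspase-11 (the product of mouse Casp4) after it binds bacterial lipopolysaccharide, also cut gasdermin D, whose free end opens pores in the plasma membrane and ends in a lytic death called pyroptosis. In tumors these genes are known mainly from macrophages, monocytes and dendritic cells, although tumor cells can express some of them.

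The 6 tumors grew from 500000 CT26 cells, a colorectal carcinoma line of BALB/c origin, placed under the skin of female BALB/c mice aged 6 to 8 weeks. Animals were randomized when tumors had reached 100 to 200 mm3, and 3 tumors came from mice on vehicle and 3 from mice on TP-18, given by mouth at 50 mg/kg once a day for 3 weeks. The series title names TP-18 as an antagonist of EP2 and EP4, which are receptors for prostaglandin E2. The labels do not say that each tumor came from a separate mouse, so p-values measure only the spread between these samples. Libraries held 34813482 to 36489081 counts. Of 6 epithelial markers only Cdh1 and Krt18 passed the filter on low counts, and the 6 summed to between 9.92 and 19.1 CPM per tumor (CPM being counts scaled to a common library size), so markers of the labelled carcinoma were scarce. RNA came from whole tumors, in which more cells of a type and more RNA per cell cannot be told apart. The question the comparison answers is which transcripts differ after treatment.

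Of the 10 genes, 7 rose in TP-18 tumors: Casp1, Casp12, Gsdmd, Naip2, Naip5, Pycard and Nod2. Pycard and Nod2 rose most, 2.24-fold and 2.44-fold, and Naip2 least, at 1.27-fold. Casp4 and Nlrp3 overlapped between groups. Aim2 was slightly lower in every TP-18 tumor in TMM-scaled CPM, without passing the test. Over all 14189 tested genes, 7.09% were called higher and 5.26% lower by edgeR's quasi-likelihood test at a Benjamini-Hochberg adjusted p under 0.05. Of the 10, 0 were called lower, while at an unadjusted p under 0.05 there was 1, Aim2. Its unadjusted edgeR p of 0.0367 ranked 3788 of the 14189 tested genes, both directions counted. DESeq2 and limma-voom called 0 of the 10 lower and the same number, 7, higher. In TMM-scaled CPM, groups did not overlap in 7 of the 10 with TP-18 higher and in 1 with TP-18 lower, against 18% and 17.8% of all tested genes. The median log2 change was 0.59 over the 10 genes and -0.01 over all tested genes. By DESeq2 9.77% of all tested genes were called higher and 8.22% lower, and by limma-voom 7.25% and 5.1%.

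The number of calls changed when single tumors were left out, and each such fit also has fewer tumors. Leaving out vehicle 1, 2 or 3 gave 7, 3 and 7 members called higher, beside 8.31%, 2.81% and 6.4% of all genes. Leaving out TP-18 1, 2 or 3 gave 5, 3 and 2 members, beside 4.08%, 3.51% and 2.69%. Members called lower numbered 0 in all 6 fits, beside 6.99%, 0.766% and 2.98% of all genes without vehicle 1, 2 and 3 and 1.07%, 1.49% and 0.77% without TP-18 1, 2 and 3. With the replicate number as a block 3 members were called higher and 0 lower, beside 3.86% and 1.63% of all genes. On log2(FPKM + 1) limma called 7 higher (9.38% of all genes) and 0 lower (1.49%), with a pseudocount of 0.1 the same counts (9.64% and 1.59%), and without a filter on low values 6 and 0 (3.25% and 0.411%). At an adjusted p under 0.10 the edgeR counts were 7 and 0, beside 11.3% and 9.96%, and 12.4% of all genes were called in either direction at 0.05.

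**Figure D1:**
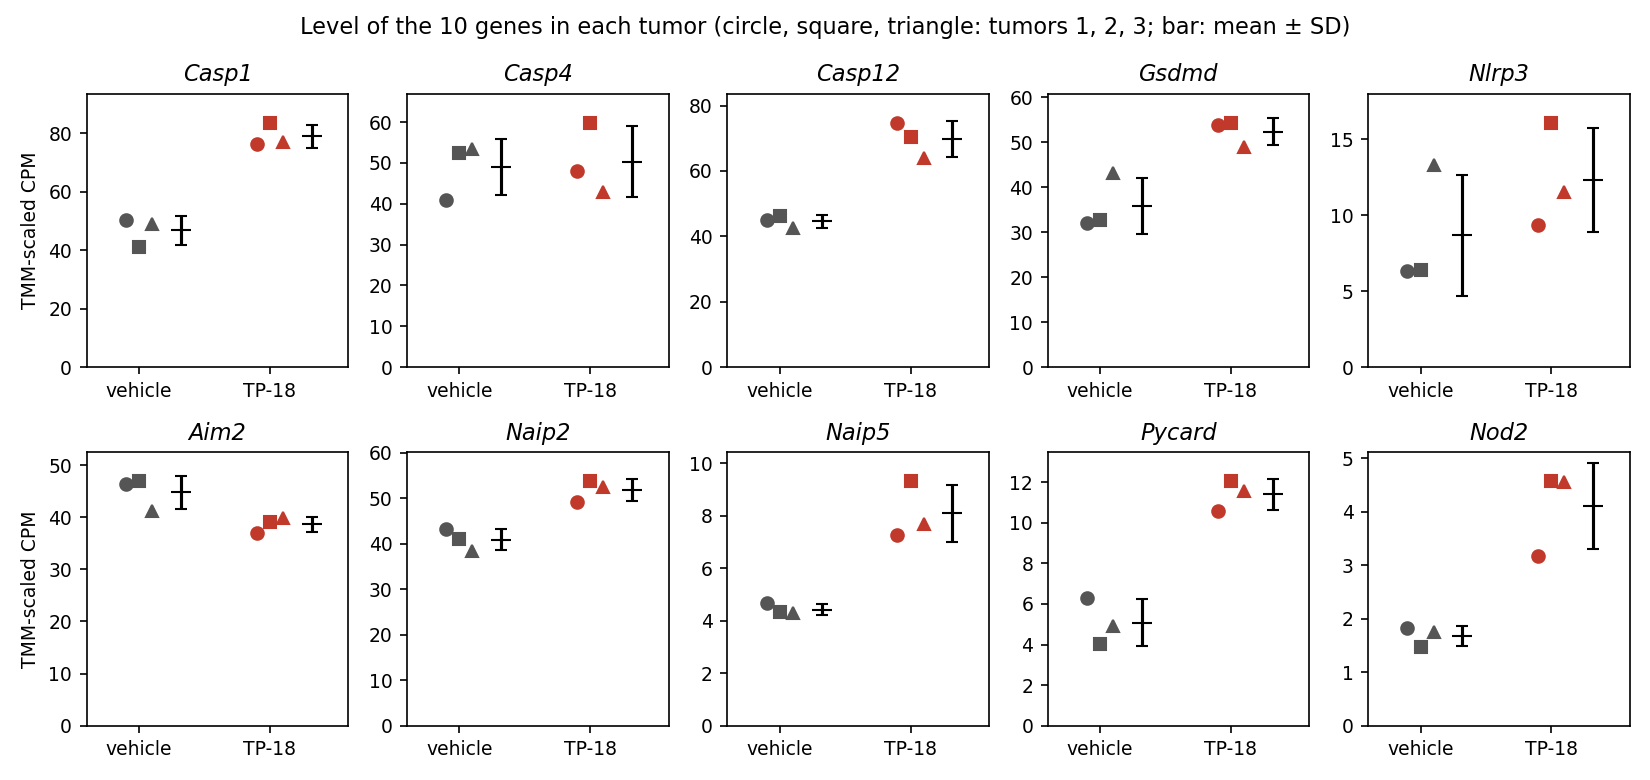
Level of each gene in TMM-scaled CPM (vertical axes, each from 0) in the 3 vehicle (grey) and 3 TP-18 tumors (red), with the mean and SD of each group as a bar beside the points. Casp1 sits between 41.1 and 50.4 CPM in vehicle and between 76.5 and 83.6 CPM in TP-18 tumors, while the groups of Casp4 and Nlrp3 overlap.

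The 3 inflammatory caspase genes lie in a row on the plus strand of chromosome 9 (GRCm38.p6), Casp1 (Entrez 12362) at 5298517 to 5307281, Casp4 (Entrez 12363) at 5308849 to 5336791 and Casp12 (Entrez 12364) at 5345442 to 5373034. Only 1567 bases separate Casp1 from Casp4 and 8650 bases separate Casp4 from Casp12, with no annotated gene between. Their upstream sequences are shown because the outer genes rose and the middle one did not. Each runs 5′ to 3′ and ends before the earliest annotated start of its gene in RefSeq or GENCODE M21. The sequences are RefSeq's, on GRCm38.p6, plus strand, and cover chr9:5298267-5298516 for Casp1, chr9:5308599-5308827 for Casp4 and chr9:5345226-5345429 for Casp12. A further stretch of 29 bases, chr9:5345430-5345458, lies in the first exon of a Casp12 transcript that starts early. Capitals mark matches to the GAS motif TTCNNNGAA in Casp12, and to the NF-kB consensus in Casp4, on either strand, with 2 overlapping matches in the first run of Casp4.
Casp1 upstream: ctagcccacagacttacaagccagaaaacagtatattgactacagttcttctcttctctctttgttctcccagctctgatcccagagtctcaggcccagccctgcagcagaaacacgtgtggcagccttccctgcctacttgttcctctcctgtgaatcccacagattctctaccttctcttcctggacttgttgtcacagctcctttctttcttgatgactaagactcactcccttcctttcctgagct
Casp4 upstream: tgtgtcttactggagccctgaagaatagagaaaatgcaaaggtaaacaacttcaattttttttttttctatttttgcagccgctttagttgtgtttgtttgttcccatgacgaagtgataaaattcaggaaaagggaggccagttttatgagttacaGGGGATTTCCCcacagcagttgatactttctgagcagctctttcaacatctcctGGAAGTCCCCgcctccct
Casp12 upstream: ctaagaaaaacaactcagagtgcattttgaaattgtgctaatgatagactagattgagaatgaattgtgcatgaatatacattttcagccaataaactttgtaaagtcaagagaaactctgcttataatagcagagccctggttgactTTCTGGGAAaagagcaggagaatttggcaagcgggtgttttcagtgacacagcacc
Casp12 second match: attggtatgtTTCTGGGAAggaaaggcac

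Motifs were sought in the 250 bases before each RefSeq start, in 9 of the 10 genes, since Gsdmd had no entry. GAS matches began at -102 and -36, counted from the Casp12 start of the promoter entry, position 5345476, and stood in no other of the 9 genes, against 7.02% of all 32851 promoters with at least 1 match and 0.317% with 2 or more. NF-kB matches stood in Casp4, Nlrp3 and Naip5, 3 of 9 genes, against 7.25% of all promoter entries. A gene was counted if any of its entries had a match, so the units differ. The Naip5 match lies before a start inside the gene's RefSeq span, not before its earliest start. The ISRE core, bound by interferon regulatory factors, had no match in the 9, against 2.98% of all. No match of one motif overlapped a match of another in the 9 genes. A match is a description of letters, and says nothing of binding in these tumors.

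Casp1, whose product matures IL-1 beta and IL-18, measured 50.4, 41.1 and 49.0 CPM in vehicle tumors 1, 2 and 3 and 76.5, 83.6 and 77.0 CPM in TP-18 tumors 1, 2 and 3. Every TP-18 tumor stood above every vehicle tumor, and the means were 46.8 ± 5.00 and 79.0 ± 3.99 CPM (SD, n = 3 per group). The log2 change was 0.75 ± 0.10 (SE), 1.69-fold, with an adjusted p of 0.00491. Casp12 encodes an inflammatory caspase whose catalytic role is less settled than that of its neighbours. It measured 45.1, 46.3 and 42.4 CPM in vehicle and 74.7, 70.5 and 64.0 CPM in TP-18 tumors, again without overlap. Its log2 change was 0.64 ± 0.09 (adjusted p = 0.00547). Casp1 and Casp12 were the only members (2 of the 10) that passed whichever single library was left out, with adjusted p-values up to 0.0217 and 0.0251.

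Casp4, which encodes the cytosolic lipopolysaccharide receptor caspase-11, measured 41.0, 52.5 and 53.3 CPM in vehicle and 48.0, 59.8 and 43.0 CPM in TP-18 tumors. These values interleaved. The log2 change was 0.04 ± 0.15 (adjusted p = 0.888), with values from 0.02 to 0.18 under other scalings, filters and tools, and it turned to -0.06 without vehicle 1 and -0.11 without TP-18 2. The ratio of Casp1 to Casp4 counts, which needs no scaling between libraries, was 1.23, 0.784 and 0.919 in vehicle and 1.59, 1.40 and 1.79 in TP-18 tumors. That ratio was higher in all 3 TP-18 tumors, by 0.72 on the log2 scale, as was Casp12 over Casp4, by 0.61. Each had an exact two-sided permutation p of 0.1, the smallest that 3 against 3 allows, and 0.15 after adjustment over the 6 ratios computed, which were chosen after the values were seen. Casp1 over Casp12 overlapped between groups (log2 difference 0.12, exact p = 0.5).

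Gsdmd (Entrez 69146, chromosome 15, 75862144 to 75867408) encodes the gasdermin that carries out pyroptosis. Its level was 32.0, 32.7 and 43.1 CPM in vehicle and 53.8, 54.4 and 48.9 CPM in TP-18 tumors. Vehicle 3 stood highest of its group, yet below the lowest TP-18 tumor. The log2 change was 0.54 ± 0.13, 1.46-fold, with an adjusted p of 0.0314. Its adjusted p rose to 0.107 when vehicle 2 was left out, and to 0.0938, 0.0872 and 0.0789 when TP-18 1, 2 and 3 were.

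Pycard (Entrez 66824, chromosome 7, 127991373 to 127993867, minus strand), the gene of the adaptor ASC, measured 6.29, 4.01 and 4.93 CPM in vehicle and 10.6, 12.04 and 11.6 CPM in TP-18 tumors. The lowest TP-18 tumor was well above the highest vehicle tumor, vehicle 1. Means of 5.08 ± 1.15 and 11.4 ± 0.76 CPM gave a log2 change of 1.16 ± 0.19, 2.24-fold, and an adjusted p of 0.0108. Without TP-18 3 the adjusted p was 0.0508. Pycard shares 485 exonic bases, 12.8% of its own, with Gm45205 on the opposite strand in GENCODE M21, and whether the libraries kept strand is not given in the sources used here.

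**Figure D2:**
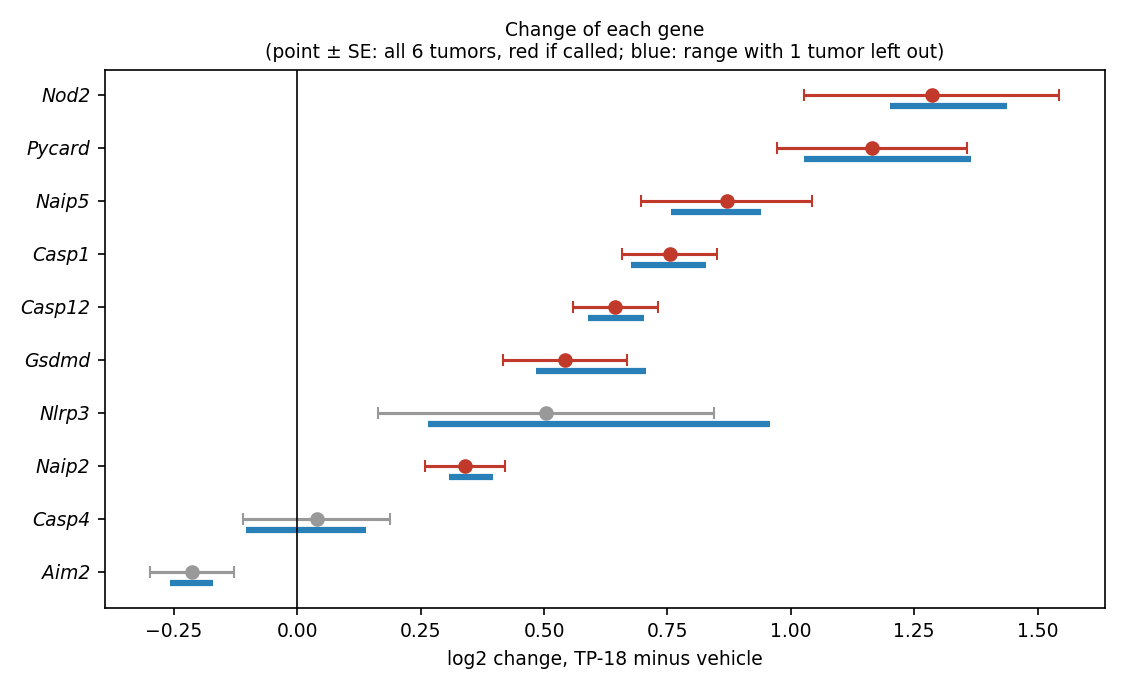
Log2 change of each gene, TP-18 minus vehicle (horizontal axis), with its SE (red if called, grey if not), and in blue the range of the change when each tumor was left out in turn. Pycard and Nod2 have the largest changes, 1.16 and 1.29, and the range of Casp4 spans 0.

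Among the sensors, Nod2 (Entrez 257632, chromosome 8, 88647315 to 88688474) senses bacterial muramyl dipeptide and signals through RIPK2 to NF-kB rather than through caspase-1. It was the scarcest member, with 168 vehicle reads and 463 TP-18 reads, and measured 1.82, 1.47 and 1.75 CPM against 3.17, 4.57 and 4.56 CPM. TP-18 1 was the lowest of its group, still above all vehicle tumors. The log2 change was 1.29 ± 0.26, 2.44-fold (adjusted p = 0.0208), and it missed the threshold without vehicle 2 (0.0825), TP-18 2 (0.0703) or TP-18 3 (0.0884).

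Naip2 and Naip5 lie next to each other on the minus strand of chromosome 13, Naip2 (Entrez 17948) at 100144063 to 100202122 and Naip5 (Entrez 17951) at 100211735 to 100250930. Naip2 detects the rod protein of bacterial type III secretion systems and Naip5 detects flagellin, and both act through NLRC4. Naip2 measured 43.1, 41.1 and 38.4 CPM in vehicle and 49.1, 53.7 and 52.5 CPM in TP-18 tumors. The separation was narrow, with a log2 change of 0.34 ± 0.08 (adjusted p = 0.0348). Its call held only without vehicle 1 (0.0235): adjusted p-values were 0.101 without vehicle 2, 0.0714 without vehicle 3, and 0.0762, 0.102 and 0.12 without TP-18 1, 2 and 3.

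Naip5 was scarcer, at 4.67, 4.32 and 4.28 CPM in vehicle and 7.26, 9.31 and 7.69 CPM in TP-18 tumors. Its groups were also apart, with a log2 change of 0.87 ± 0.17, 1.83-fold (adjusted p = 0.0204). It missed the threshold without vehicle 2 (0.0777), TP-18 2 (0.0719) or TP-18 3 (0.0724). Counts of Naip5 over Naip2 were 0.108, 0.105 and 0.111 in vehicle and 0.148, 0.173 and 0.147 in TP-18 tumors, higher in all 3 by 0.52 (log2; exact permutation p = 0.1, adjusted 0.15). Both are uncertain as single genes. Of all 75-base stretches of their GENCODE transcripts, 23.8% in Naip5 and 10.7% in Naip2 also occur in other genes, first in Naip6 and Naip1, and what the counting did with multi-mapping reads is not known here. Pycard shares 10.9% with Gm45205, and the 7 other members share none. The reference is of C57BL/6J mice, whereas the tumors and hosts are BALB/c.

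Nlrp3 (Entrez 216799, chromosome 11, 59541569 to 59566955), the sensor of potassium loss and other cell damage signals, measured 6.35, 6.43 and 13.3 CPM in vehicle and 9.36, 16.1 and 11.5 CPM in TP-18 tumors. Vehicle 3 stood among the TP-18 values while vehicle 1 and vehicle 2 lay below all of them. The log2 change was 0.50 ± 0.34 (adjusted p = 0.364), and it became 0.96 with an adjusted p of 0.0474 without vehicle 3. Vehicle 3 also had the most neutrophil marker RNA, 328 CPM summed over 8 genes against 33.2 to 92.0 CPM in the other 5 tumors, and the part of this in the Nlrp3 value was not tested.

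Aim2 (Entrez 383619, chromosome 1, 173349547 to 173466040), which binds double-stranded DNA in the cytosol, measured 46.3, 46.9 and 41.1 CPM in vehicle and 37.0, 39.2 and 39.8 CPM in TP-18 tumors. In TMM-scaled CPM all TP-18 values were below all vehicle values, though by little. In the deposited FPKM, which lack that scaling, the groups overlapped. They were 4.67, 4.44 and 3.81 FPKM in vehicle and 3.92, 4.09 and 4.29 FPKM in TP-18 tumors. The log2 change was -0.21 ± 0.09 with an adjusted p of 0.137, and under the alternatives it ran from -0.26 to -0.06 and did not pass in any of the 18. Pycard over Aim2 counts were 0.136, 0.0856 and 0.12 in vehicle and 0.286, 0.307 and 0.291 in TP-18 tumors, a log2 difference of 1.40 (exact permutation p = 0.1, adjusted 0.15).

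**Figure D3:**
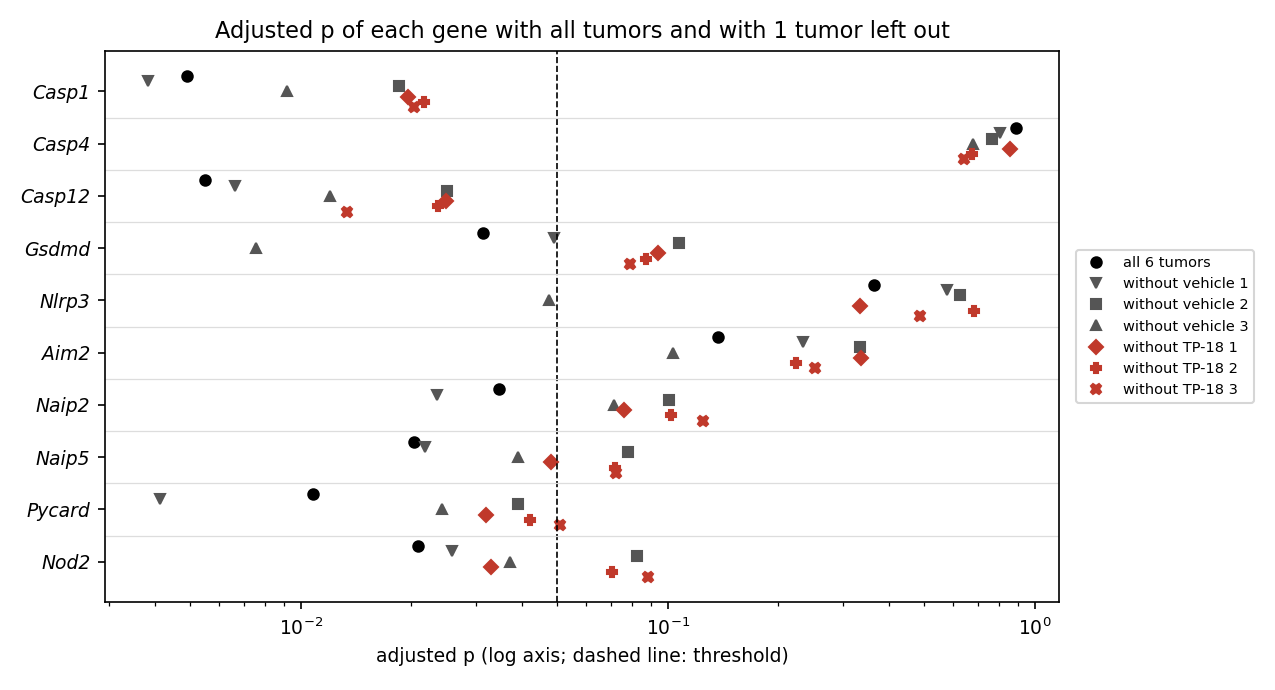
Adjusted p of each gene (horizontal log axis, dashed line at the threshold of 0.05) with all 6 tumors and with each tumor left out in turn. Casp1 and Casp12 stay left of the line throughout, Gsdmd, Naip2, Naip5 and Nod2 cross it in several fits, Pycard crosses it once (0.0508), and Nlrp3 passes only without vehicle 3 (0.0474).

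Levels between genes were compared per length, in the deposited FPKM. In vehicle tumors Casp4 (31.1 ± 3.16 FPKM) and Casp1 (29.5 ± 3.90) were highest and overlapped. Gsdmd (17.3 ± 2.45) and Casp12 (15.6 ± 1.16) followed, also overlapping, then Naip2 (8.03 ± 0.81) and Aim2 (4.31 ± 0.45). Pycard (2.28 ± 0.61) and Nlrp3 (2.01 ± 0.85) overlapped, and Naip5 (0.703 ± 0.066) and Nod2 (0.341 ± 0.047) were lowest (SD, n = 3). In TP-18 tumors Casp1 (54.8 ± 2.10 FPKM) stood alone at the top, above Casp4 (35.4 ± 5.50), and Pycard (5.61 ± 0.36) stood above Aim2 (4.10 ± 0.19), without overlap in either pair. The rest of the order did not change, with Gsdmd and Casp12 again overlapping, as did Aim2 and Nlrp3. The length used by the authors was 9900 bases for Aim2, against 3501 exonic bases in GENCODE M21, 1489 against 3710 for Casp4, 2135 against 3800 for Pycard and 2714 against 3840 for Casp12, so the places of these genes, Pycard against Aim2 and Nlrp3 included, depend on the gene model.

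The groups also differed in macrophage and monocyte markers, the cells in which many of these genes are best known. Of 13 such markers 5 rose (Adgre1, Ms4a7, Fcgr1, Itgam and Lyz2) and none fell, beside 7.09% and 5.26% of all tested genes. Their median log2 change was 0.69. Their summed level ran from 1658 to 2367 CPM in vehicle and from 2934 to 3705 CPM in TP-18 tumors, and none of the 13 was at 0. Taking the mean log2 CPM of these 13 as a score, which was 0.79 higher in TP-18 tumors, each gene was also expressed relative to it in each tumor. On this relative scale Nod2 and Pycard were still higher in all 3 TP-18 tumors, by 0.48 and 0.40 (log2). Aim2, Casp4 and Naip2 were lower without overlap, with differences of -0.999, -0.75 and -0.45. The 5 others overlapped, among them Casp1 at -0.03, Casp12 at -0.15 and Gsdmd at -0.23. Because the score itself was 0.79 higher, a gene that did not change falls by about that much on this scale. Casp4, with a log2 change of 0.04 before the subtraction, is such a gene. The share of all tested genes that would be lower without overlap on this scale was not computed. An exact permutation test of 3 against 3 cannot go below 0.1, and what part cell numbers have in the changes was not tested.

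**Figure D4:**
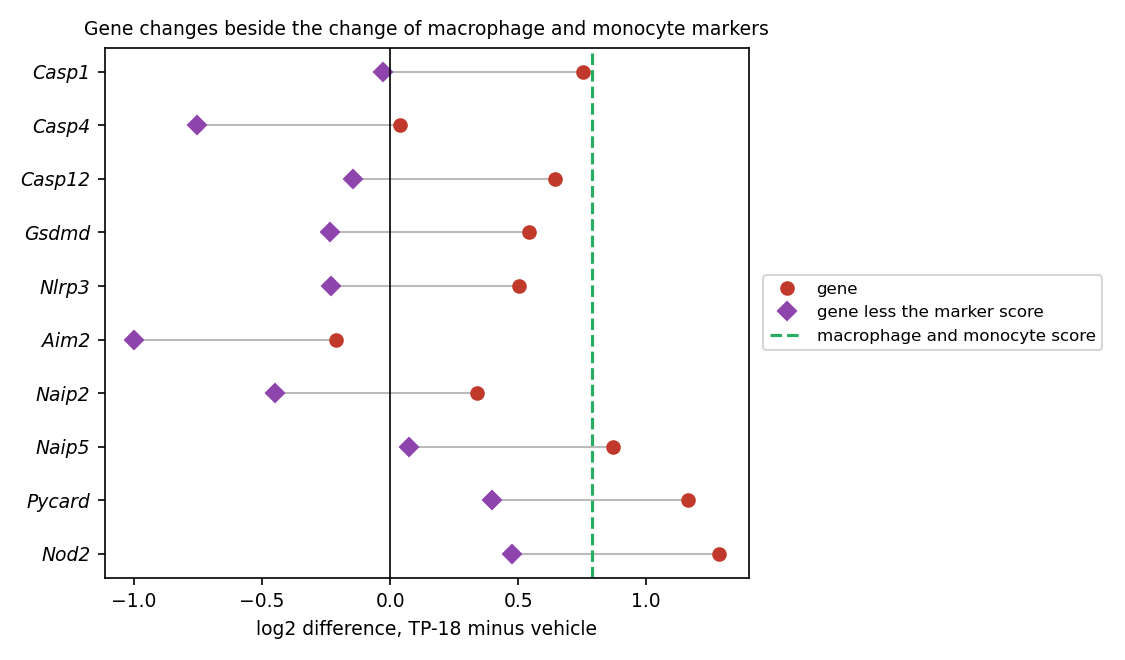
Log2 difference, TP-18 minus vehicle, of each gene (red circles) and of each gene less the macrophage and monocyte score of the same tumor (purple diamonds). The dashed line marks the score itself, 0.79. Relative to the score Casp1 is at -0.03, and Nod2 and Pycard remain above 0.

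Other cell type markers moved as well, and their part in these results was not tested. Beside the counts below, 7.09% of all tested genes were called higher and 5.26% lower. T cell markers rose in 9 of 9 tested genes (summed level 14.4 to 29.1 CPM in vehicle and 77.2 to 87.3 CPM in TP-18 tumors), NK cell markers in 4 of 5 (27.6 to 61.3 against 96.7 to 168 CPM, with Klra8 at 0 vehicle reads and 1 TP-18 read) and dendritic cell markers in 5 of 8 (10.1 to 13.1 against 25.0 to 30.6 CPM). Skeletal muscle markers rose in 5 of 7 (9.15 to 29.6 against 58.2 to 112 CPM). Red blood cell markers fell in 4 of 5 tested (66.3 to 395 against 14.8 to 33.9 CPM).

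Genes around the inflammasome were read from 5 lists of 84 symbols, of which 78 were in the table. As a background, edgeR called 7.09% of all tested genes higher and 5.26% lower. DESeq2 called 9.77% and 8.22%, and limma-voom 7.25% and 5.1%. Cytokines of the IL-1 family, IL-18 and IL-33 included, with their receptors and binding proteins, had 12 genes tested. Of these 2 rose and none (0) fell by edgeR, with 1 lower at an unadjusted p under 0.05, 1 lower by DESeq2 and 0 by limma-voom. The list's median log2 change was 0.04. Il18r1, the ligand-binding chain of the IL-18 receptor, measured 0.740, 0.827 and 1.25 CPM in vehicle and 6.64, 7.09 and 8.36 CPM in TP-18 tumors. It rose by 2.97 ± 0.27 (log2; adjusted p = 0.00176) and passed whichever single library was left out. Il18bp, a secreted protein that captures IL-18, rose by 2.31 ± 0.45 (adjusted p = 0.0312), which became 0.0835 and 0.106 when vehicle 1 and 2 were omitted and 0.0624 when TP-18 1 was.

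Il18rap, the second chain of that receptor, measured 143 ± 11.04 and 149 ± 8.35 CPM (log2 change 0.05 ± 0.08, adjusted p = 0.710). The IL-33 receptor gene Il1rl1, at 411 ± 130 and 310 ± 59.2 CPM, and the IL-1 receptor gene Il1r1, at 103 ± 13.3 and 94.8 ± 7.72 CPM, did not pass either. The substrates of caspase-1 were looked at after their values were seen. Il1b measured 26.5, 25.9 and 137 CPM in vehicle and 31.3, 40.1 and 47.3 CPM in TP-18 tumors (log2 change -0.68 ± 0.75, adjusted p = 0.596), so its 2 lower vehicle tumors and its single high one, vehicle 3, lay on either side of the TP-18 values. Il18 was scarce, at 0.740, 0.735 and 2.00 CPM against 2.31, 2.93 and 1.64 CPM (log2 change 0.99 ± 0.47, adjusted p = 0.198), with vehicle 3 among the TP-18 values.

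Other sensors of the NLR family, cytosolic proteins with a nucleotide-binding and a leucine-rich domain, had 10 of 13 genes tested. By edgeR 4 rose and 0 fell, beside 7.09% and 5.26% of all tested genes (0 fell also at an unadjusted p under 0.05, by DESeq2 and by limma-voom). Nod1, which senses another peptidoglycan fragment and shares RIPK2 with NOD2, rose by 1.34 ± 0.15, from 10.1 ± 1.20 to 25.7 ± 4.42 CPM (adjusted p = 0.00327). Nlrc5, the transactivator of MHC class I genes, rose by 1.00 ± 0.13. Nlrc4, the partner through which NAIP proteins reach caspase-1, rose from 0.655, 0.306 and 0.531 CPM to 1.32, 2.87 and 2.15 CPM, resting on 50 vehicle reads and 238 TP-18 reads. Its log2 change was 2.08 ± 0.43 (adjusted p = 0.0234), which became 0.0854 when vehicle 2 was omitted and 0.0747 and 0.0802 when TP-18 2 and 3 were. Naip6, a close copy of Naip5, rose by 0.69 ± 0.15 (adjusted p = 0.0278), and passed only without vehicle 1 (0.0371), with 0.0537 to 0.121 in the 5 other fits. Nlrx1, Nlrc3 and Nlrp1b, the most abundant of the rest, had log2 changes of 0.22, -0.11 and 0.57 and did not pass.

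The PYHIN genes, relatives of Aim2 on chromosome 1, had 11 of 13 tested. By edgeR 1 of the 11 rose, near the 7.09% of all tested genes called higher, and 0 fell (5.26%). At an unadjusted p under 0.05, by DESeq2 and by limma-voom 0 fell too. DESeq2 and limma-voom each called 3 higher, beside 9.77% and 7.25% of all genes. The one called, Ifi208, measured 1.96 ± 0.53 CPM in vehicle and 7.71 ± 2.64 CPM in TP-18 tumors, a rise of 1.97 ± 0.33 on the log2 scale with an adjusted p of 0.0108. The most abundant relatives, Ifi203, Ifi204 and Mndal, had log2 changes of -0.18 ± 0.12, 0.28 ± 0.11 and -0.25 ± 0.13 and did not pass. Over the 11 genes, Ifi213 with 14 vehicle reads among them, the median log2 change was 1.20. In TMM-scaled CPM, groups did not overlap in 6 of the 11 with TP-18 higher and in 0 with TP-18 lower, against 18% and 17.8% of all tested genes. These genes are close copies of each other, and how reads were shared among them is not known here.

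Of other gasdermins and genes of lytic or apoptotic death, 12 of 19 were tested. Of these 12, edgeR called 1 higher, near the 7.09% of all tested genes. That gene was Zbp1, a nucleic acid sensor of necroptosis. It rose by 1.81 ± 0.28 (adjusted p = 0.0164, with 0.0512 without vehicle 2 and 0.0552 without TP-18 1). DESeq2 called 3 of the list higher and limma-voom 1, beside 9.77% and 7.25% of all genes, and 5 were higher at an unadjusted p under 0.05. None (0) fell by edgeR, also at an unadjusted p under 0.05, by DESeq2 and by limma-voom. Ninj1, which ruptures the membrane late in pyroptosis (log2 change 0.24 ± 0.25), and Mlkl, the pore former of necroptosis (0.18 ± 0.11), did not pass. Gsdme, the other gasdermin that passed the low-count filter, was chosen after its values were seen and measured 9.37 ± 1.48 and 8.86 ± 1.47 CPM (adjusted p = 0.80). Gsdma, Gsdmc and Gsdmc4 had 2, 1 and 17 reads over the 3 vehicle tumors and 17, 6 and 12 over the 3 TP-18 tumors and were not tested.

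Genes that prime or regulate inflammasomes had 26 of 27 tested. By edgeR 7 rose and 0 fell, beside 7.09% and 5.26% of all tested genes. There was 1 lower at an unadjusted p under 0.05 and 0 by DESeq2 and by limma-voom. The 6 described next are known as interferon-inducible. Gm12250, the gene of IRGB10, a GTPase that attacks bacterial membranes, rose by 3.30 ± 0.24 on the log2 scale, from 8.42 ± 1.23 to 83.3 ± 24.1 CPM, with an adjusted p of 0.00149. The guanylate-binding protein genes Gbp2, Gbp3 and Gbp5, whose products expose bacterial lipopolysaccharide to caspase-11 or promote inflammasome assembly, rose by 2.10 ± 0.19, 2.01 ± 0.20 and 2.24 ± 0.26. Irf1 and Irf8, transcription factors, rose by 1.30 ± 0.17 and 1.26 ± 0.13. The seventh, Panx1, a membrane channel that releases ATP, lies outside the naming rule and rose by 1.40 ± 0.32 (adjusted p = 0.0304), but passed only without vehicle 1 (0.0248), with 0.0511 to 0.0968 in the 5 other fits. Txnip, Nek7, which binds NLRP3, and Nfkb1 had log2 changes of 0.34 ± 0.30, -0.06 ± 0.08 and -0.04 ± 0.07 and did not pass.

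**Figure D5:**
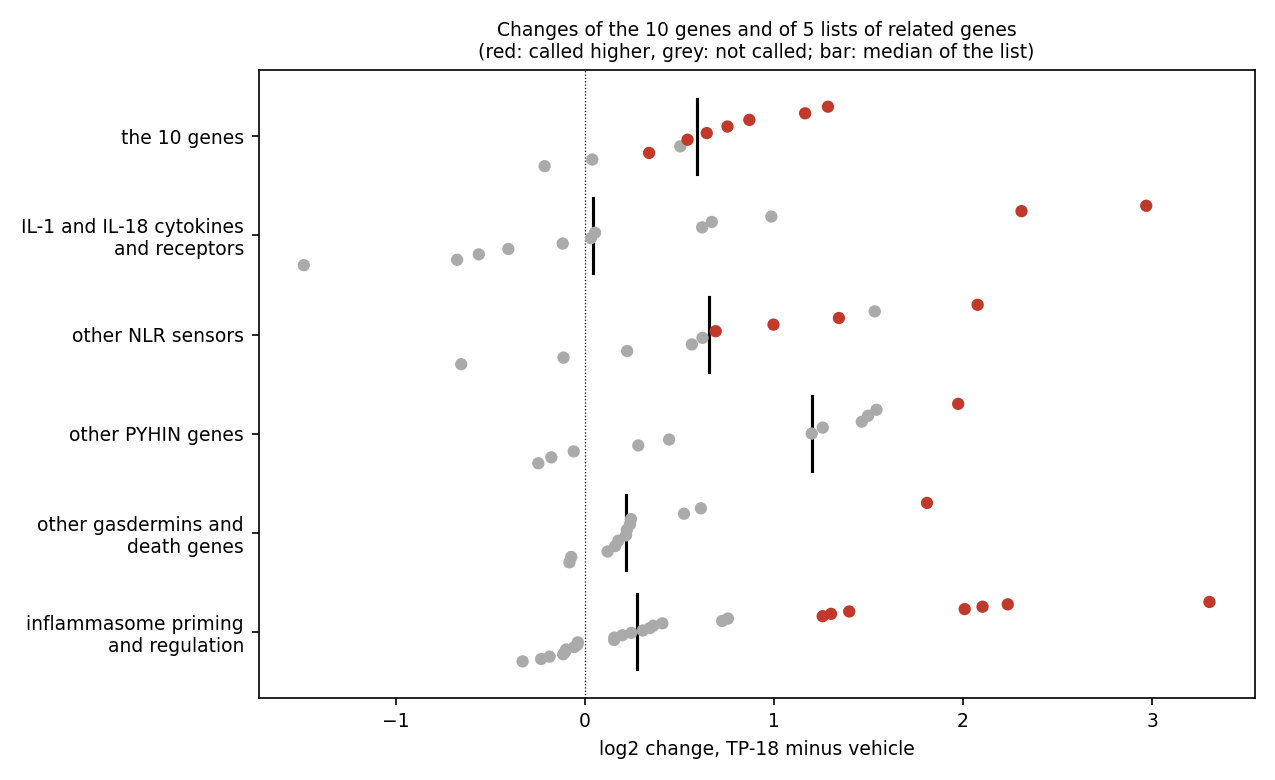
Log2 change, TP-18 minus vehicle (horizontal axis), of the 10 genes and of the tested genes of 5 related lists, red where called higher and grey where not called, with the list's median as a bar. Il18r1 (2.97) and Gm12250 (3.30) lie farthest to the right, and edgeR called 0 genes of the lists lower.

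The median profile of the 10 genes over the 6 tumors, centred on its mean, ran from -0.43 in vehicle 2 to 0.40 in TP-18 2 (log2). Among 13141 other tested protein-coding genes, the 5 at the smallest Euclidean distance from it over the 6 tumors were Psme2 (0.106), C130026I21Rik (0.12), Emilin1 (0.121), Psme1 (0.134) and Psme2b (0.143). Psme1 and Psme2 encode the PA28 activator of the proteasome and Emilin1 encodes a matrix glycoprotein. Psme2b is a copy of Psme2, so their reads may not be separable. Their log2 changes were 0.63, 0.65, 0.55, 0.56 and 0.67 in that order.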

How the data were processed

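RNA sequencing of 6 CT26 tumors, 3 per group by the labels, was used. Per the submitters' processing notes the authors used fastp, HISAT2 and HTSeq with GRCm38, with versions, strand setting and treatment of multi-mapping reads not given in the sources used here. Raw counts per gene were deposited as whole numbers. The deposited FPKM values equal each count divided by a whole-number gene length and the library total, checked in the 12982 of 23122 genes with at least 10 counts in every library (lengths within 0.01 of a whole number).

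Counts were fitted with edgeR 4.0.16 (R 4.3.3): filterByExpr (minimum count 10, minimum total 15; 14189 of 23122 genes kept), TMM scaling, the group as the only term, a robust quasi-likelihood F test (two-sided), and Benjamini-Hochberg adjustment over all tested genes, called at an adjusted p under 0.05. CPM are TMM-scaled, given as mean ± SD, and SE were derived from the F statistic. The procedure was run on counts simulated with planted changes and with dispersions estimated from these data. The outcome of that run is not reported here. Counts of replicates differed by more than sampling noise in every pair.

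All 10 genes are named, and of each list the called genes (at most the 6 of smallest p) and the 3 most abundant genes not called, except 1 that is not reported here. Genes and lists were chosen with earlier results of these data known. RefSeq GRCm38.p6 (matched by Entrez ID) and GENCODE M21 (by symbol) gave positions and sequences. Alternatives were RLE and upper-quartile scaling, other count filters, non-robust moderation, a replicate block, DESeq2 1.42.0, limma-voom and limma 3.58.1 on log2 FPKM with pseudocounts of 1 and 0.1, an adjusted p under 0.10, and leaving out each library.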

Additional observations from a re-analysis of the deposited data

How the results depend on the processing

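The count of the 10 genes called higher stayed at 6 to 7 under 11 of the 12 alternatives that keep all tumors. It was 3 with the replicate number as a block, and 2 to 7 with one library left out, lowest when TP-18 3 was omitted. No alternative called a member lower (0). Over all genes, 1006 were called higher and 747 lower. These became 547 and 231 with the replicate block, 1609 and 1413 at an adjusted p under 0.10, and 388 to 1216 and 111 to 1023 with one library left out. Lower calls were 1235 by DESeq2, 213 (beside 1342 higher) by limma on log2(FPKM + 1), 228 with a pseudocount of 0.1, and 95 without a filter on low FPKM. Each leave-one-out fit has fewer tumors, and the block leaves fewer residual degrees of freedom. The cause of these differences was not tested. The labels state no pairing by number, deviations of equal-numbered tumors correlated at 0.23, -0.08 and -0.03 across genes, and only TP-18 1 correlated most with its own number. Under the block Gsdmd, Naip2, Naip5 and Nod2 missed the threshold (adjusted p 0.0682, 0.0854, 0.0646 and 0.0658) with log2 changes of 0.55, 0.34, 0.86 and 1.27. Casp4 was the only member to change sign, at -0.06 when vehicle 1 was left out and -0.11 when TP-18 2 was, in a leave-one-out range of -0.11 to 0.14. The median log2 change of all genes was -0.01, and 0.09 on log2(FPKM + 1) and 0.13 on log2(FPKM + 0.1), where the members' medians were 0.51 and 0.74. Nod2 had the fewest reads of the members, 168 in vehicle tumors, and Nlrp3 the largest SE, 0.34.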

Other observations

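Il33, an alarmin cytokine of the IL-1 family looked at after its values were seen, was lower in all 3 TP-18 tumors, at 14.97, 22.6 and 18.0 CPM against 33.2, 33.4 and 89.0 CPM in vehicle tumors. Its log2 change was -1.49 ± 0.45 and did not pass edgeR's test (adjusted p = 0.0935). It passed by DESeq2 (adjusted p = 0.0226) and by edgeR without vehicle 3 (log2 change -0.84, adjusted p = 0.0245), and in the other alternatives at the 0.05 threshold its adjusted p was 0.0505 to 0.241. Vehicle 3, the tumor with most Il33, was also the highest for Il1b. Pycard over Nlrp3 counts, adaptor over sensor, were 0.991, 0.624 and 0.371 in vehicle and 1.13, 0.748 and 1.004 in TP-18 tumors, which overlapped (exact permutation p = 0.2, adjusted 0.24 over 6 ratios).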
